A study of Mus musculus with 6 samples.

Results

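The proteasome is the barrel-shaped protease that degrades proteins tagged with ubiquitin. The genes of its constitutive subunits, activators and assembly factors were compared between CD8+ T cells labelled Dot1l knockout and wild type. Of 22180 genes with a probe set of their own, 46 carried a symbol beginning with Psma, Psmb, Psmc, Psmd, Psme, Psmf or Psmg and a digit, with the inducible catalytic subunits Psmb8, Psmb9 and Psmb10 set apart. Such a symbol stood on the probe sets of 47 genes in all, and Psma4 had only probe sets that it shared with AY074887. Of the 46 genes, 44 encode subunits, activators, the inhibitor or assembly factors. The other two, Psmc3ip, a meiotic recombination factor, and Psme3ip1, a protein that binds the nuclear activator, have none of these roles and were kept in the counts.

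RNA was measured on 6 whole-transcript arrays, with 3 in each of the groups labelled Dot1l knockout and wild type, all from untreated CD8+ T cells of C57BL/6 mice taken fresh from spleen and peripheral lymph nodes with an isolation kit. Per the labels, Dot1l flox/flox mice were bred to carry CD4-Cre, whose Cre recombinase is active from a developing thymocyte stage that also gives rise to CD4+ T cells. By this design the gene would be lost before the CD8+ cells matured, which was not tested here. The labels do not give the age of the mice, whether the wild type mice carried the floxed alleles or Cre, or whether each array stands for its own mouse. The p-values thus speak of the spread among these 6 arrays, which may be technical. Dot1l encodes the enzyme that methylates lysine 79 of histone H3. Values are log2 expression levels as deposited, and each is a mean ± SD over 3 arrays per group unless a single array is named. In bulk RNA, fewer cells of a type and less RNA per cell cannot be told apart.

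The proteasome's 20S core is a stack of rings built from alpha subunits, which form the gate, and beta subunits, of which Psmb5, Psmb6 and Psmb7 encode the constitutive proteases. The 19S particle caps the core, with a ring of ATPases that unfold substrates and a set of non-ATPase subunits that bind and remove ubiquitin. Activators of the PA28 and PA200 families open the core without ubiquitin, and chaperones guide assembly. In T cells, interferon induces Psmb8, Psmb9 and Psmb10, which replace the constitutive proteases, and also Psme1 and Psme2, the PA28 alpha and beta chains, and all of these are known for shaping peptides shown on MHC class I. NFE2L1 is known to raise proteasome genes when the protease is short.

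None of the 46 genes passed the test in either direction (limma with Benjamini-Hochberg adjustment over 22180 genes, threshold 0.05). Over all genes 4.3% were called higher and 1.2% lower in Dot1l knockout arrays, 5.5% in all. Among the 11408 genes above the background guide 9.95% were called. That guide, a log2 value of 3.83, is the 95th percentile of genes for smell and pheromone receptors, for which lymphocytes have no known use. At an unadjusted p under 0.05 there were 2 members higher, Psmb2 and Psma1, and 0 lower, against 11.2% and 6.83% of all genes. With trend and robust fitting of the variances the counts were also 0 and 0. The differences lay between -0.24 and 0.32 on the log2 scale, with a median of 0.029 beside -0.012 over all genes. Of the 46 differences 24 were above 0 (47.2% of all genes), and 27 were above the median of all genes. Other scalings moved members and all genes downward together: the medians were -0.027 and -0.058 after another quantile normalization, and -0.021 and -0.062 after median centring of the arrays.

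The intervals bound how large a change could be on the probe sets used. The 95% interval of the difference lay inside a 2-fold change in either direction for 46 of 46 members and inside a 1.5-fold change for 44 of 46. The exceptions to the second bound were Psmb3 and Psme2, whose intervals reached -0.65 and -0.61. Of the 44 members above the background guide, 44 lay inside 2-fold and 42 inside 1.5-fold. These counts hold for the values as deposited. After another quantile normalization the differences of Psmb3 (-0.43), Psme2 (-0.38), Psmd9 (-0.29) and Psmg3 (-0.23) were larger in size. Those of Psmb2 (0.25) and Psma1 (0.24) were smaller. For the dim Psma8 and Psmb11 the bound is weak, because RMA compresses differences of dim probe sets. The other probe sets of Psma5 (0.72, SE 0.32), Psmc2 (-0.40, SE 0.15) and Psmg2 (-0.23, SE 0.11) differed by more than those used. Over all genes 79.3% had an interval inside 1.5-fold, and among the genes above the background guide 72.1% did. The interval reached a median of 0.25 to either side for the members and 0.27 for all genes. These intervals are not adjusted for the number of genes, so a call with 3 arrays per group asked for more. Psmb2 at 0.32 and Psma1 at 0.29 were not called. The median size of the difference was 0.11 for members and 0.13 for all genes. The median SD of the members was 0.11 within both groups of arrays. Over all genes it was 0.15 in wild type and 0.12 in knockout arrays.

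**Figure D1:**
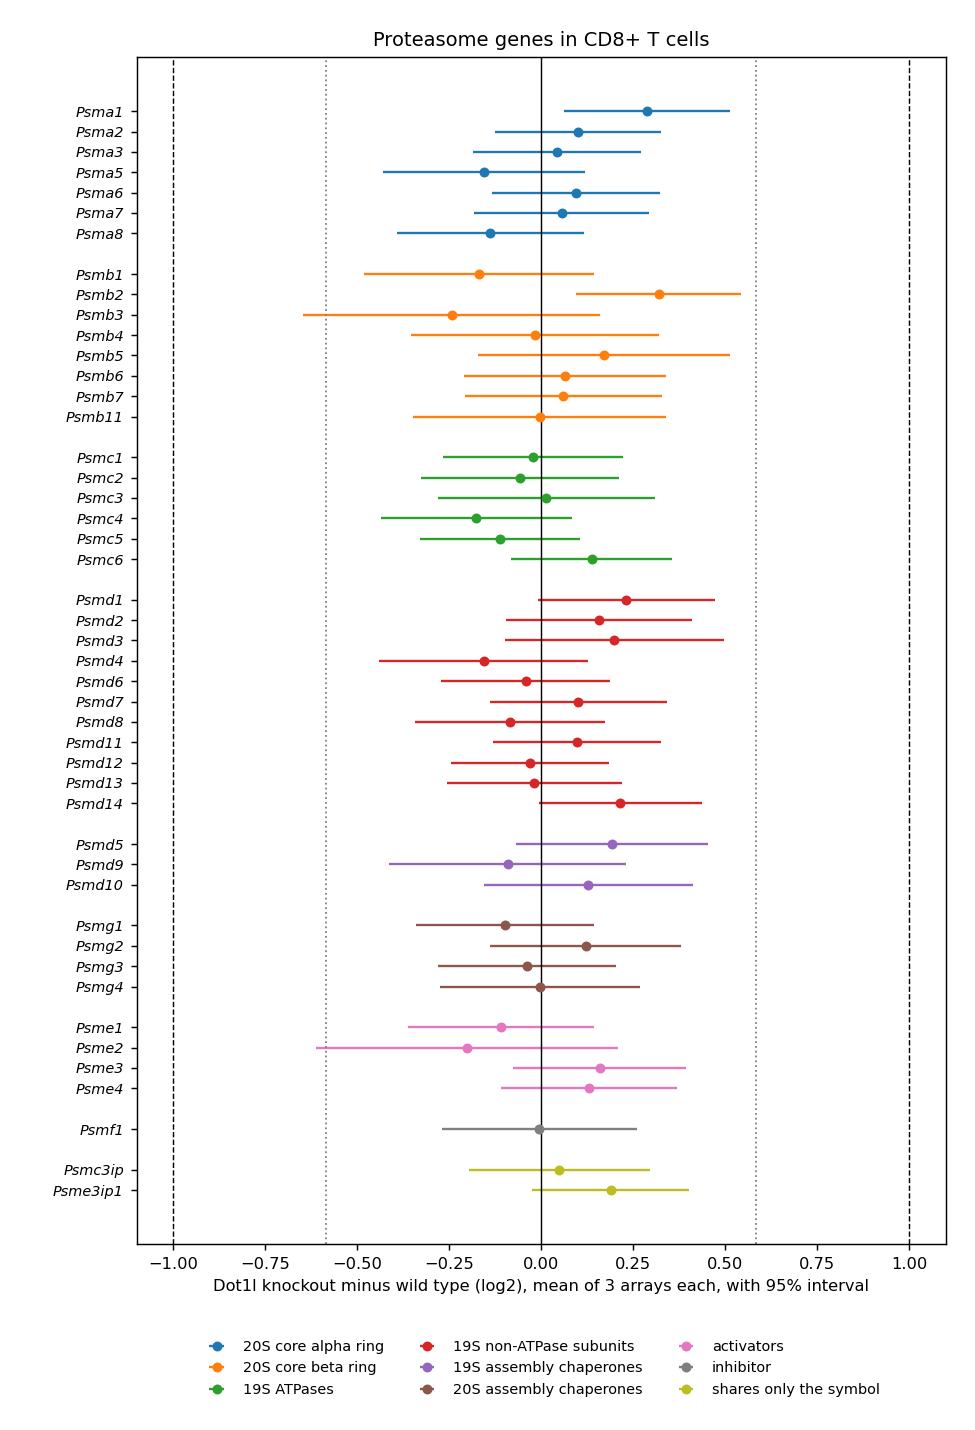
Difference between Dot1l knockout and wild type arrays on the log2 scale (horizontal axis) for each of 46 proteasome genes (rows), with 95% intervals from limma and colours for the role of the protein. Dashed lines mark a 2-fold and dotted lines a 1.5-fold change. All 46 intervals lie between the dashed lines, and only those of Psmb3 and Psme2 cross a dotted line.

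Among the 7 measured alpha ring genes 0 were called, with a median difference of 0.056. Psma1, an alpha subunit of the gate, had the ring's largest difference. It read 8.16, 7.99 and 8.05 in wild type and 8.32, 8.31 and 8.42 in Dot1l knockout arrays. All 3 knockout arrays were above all wild type arrays, but the difference of 0.29 (SE 0.10) did not pass (limma adjusted p = 0.160). Psma5, at the other end of the ring, differed by -0.16 (SE 0.12, adjusted p = 0.574). Its level of 4.06 ± 0.19 in wild type arrays was just above the background guide, and its other probe set read 2.50 ± 0.27 and 3.23 ± 0.65, so that the mean of both gave 0.28. Psma8, the alpha subunit of male germ cells, lay below the guide in both groups at 2.90 ± 0.13 and 2.76 ± 0.12. The other ring members Psma2, Psma3, Psma6 and Psma7 had differences from 0.044 to 0.099.

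Of 8 beta ring genes 0 were called, with a median of 0.028. Psmb2, a non-catalytic beta subunit, had the largest difference of all members. The wild type arrays read 6.90, 7.06 and 7.05 and the Dot1l knockout arrays 7.33, 7.29 and 7.35. The groups did not overlap, and the difference was 0.32 (SE 0.10, interval 0.10 to 0.54), with an adjusted p of 0.115 in limma that missed the threshold. Its neighbour in the ring Psmb3, also non-catalytic, gave the lowest difference of all members. It read 4.78, 5.48 and 4.99 in wild type and 5.04, 4.77 and 4.70 in knockout arrays, a difference of -0.24 (SE 0.18, adjusted p = 0.545). Wild type replicate 2 stood far above the other arrays for this gene, and the groups overlapped. Without that array the difference was -0.043, and without wild type replicate 1 it was -0.40.

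The constitutive proteases showed no difference beyond the array spread. Psmb5, the chymotrypsin-like subunit, read 6.36, 6.62 and 6.21 in wild type and 6.75, 6.29 and 6.66 in Dot1l knockout arrays, a difference of 0.17 (SE 0.15, limma adjusted p = 0.626). Psmb6, the caspase-like subunit, read 7.66, 7.51 and 7.43 against 7.61, 7.42 and 7.77, which differed by 0.064 (SE 0.12, adjusted p = 0.842). Psmb7, the trypsin-like subunit, read 8.26, 8.63 and 8.57 against 8.52, 8.57 and 8.54, which differed by 0.060 (SE 0.12, adjusted p = 0.850). In each of these genes the ranges of the groups overlapped. Psmb11, the catalytic subunit of thymic cortical epithelium, lay below the guide at 2.90 ± 0.13 and 2.90 ± 0.29. Psmb1 and Psmb4, which have no catalytic role, differed by -0.17 and -0.016.

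In the ATPase ring of the 19S particle 0 of 6 genes were called, and the median was -0.040. Psmc4, one of the unfolding ATPases, read 8.35, 8.68 and 8.46 in wild type and 8.37, 8.24 and 8.35 in Dot1l knockout arrays (difference -0.18, SE 0.12, limma adjusted p = 0.485). Psmc6, another, read 9.18, 9.22 and 9.20 against 9.28, 9.30 and 9.43 (0.14, SE 0.10, adjusted p = 0.524). The knockout arrays were all above the wild type arrays for Psmc6 and all below them for Psmc5 (-0.11, SE 0.10), while those of Psmc4 overlapped. Thus subunits of a single ring lay on either side of 0. Psmc2 had a pair of probe sets, of which the brighter differed by -0.057 (SE 0.12) and the other by -0.40 (SE 0.15, adjusted p = 0.236 over all probe sets).

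The 11 non-ATPase subunits of the cap likewise gave 0 calls, with a median of 0.097. Psmd14, the enzyme that cuts ubiquitin off the substrate, read 7.14, 7.22 and 7.12 in wild type and 7.35, 7.32 and 7.46 in Dot1l knockout arrays (0.22, SE 0.10, limma adjusted p = 0.294). The scaffold subunit gene Psmd1 read 7.70, 7.67 and 7.90 against 8.06, 7.92 and 7.99 (0.23, SE 0.11, adjusted p = 0.296). In both genes the groups were apart but by less than the test asks for. Psmd3, a scaffold subunit, read 6.43, 6.84 and 6.51 against 6.91, 6.66 and 6.81, and Psmd2, the other large scaffold subunit, 7.80, 8.0 and 7.97 against 8.13, 7.94 and 8.19. The differences of 0.20 (SE 0.13) and 0.16 (SE 0.11) came from overlapping groups. Psmd4, a ubiquitin receptor, had the lowest value of these subunits at -0.16 (SE 0.13, adjusted p = 0.586).

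Assembly factors gave no call among 3 chaperones of the cap and 4 of the core. Psmd5, which holds part of the ATPase ring during assembly, read 8.38, 8.40 and 8.25 in wild type and 8.63, 8.35 and 8.63 in Dot1l knockout arrays (0.19, SE 0.12, limma adjusted p = 0.441). Knockout replicate 2 lay among the wild type arrays for this gene. The cap chaperones Psmd10 and Psmd9 differed by 0.13 and -0.091. Of the core chaperones, Psmg2 differed by 0.12 and Psmg1 by -0.098, and Psmg3 and Psmg4 by -0.038 and -0.0031. The second probe set of Psmg2 lay below the guide at 3.29 ± 0.14 and 3.06 ± 0.06.

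Activators and the inhibitor were not called either. Psme1, the PA28 alpha chain, read 9.88, 10.05 and 9.77 in wild type and 9.82, 9.68 and 9.86 in Dot1l knockout arrays (-0.11, SE 0.11, interval -0.36 to 0.14, limma adjusted p = 0.680). Psme2, the beta chain, read 5.36, 5.89 and 6.18 against 5.60, 5.62 and 5.62 (-0.20, SE 0.18, interval -0.61 to 0.21, adjusted p = 0.633). The wild type arrays of Psme2 were spread widely and the knockout arrays lay together within that range. The difference was -0.016 without wild type replicate 3 and -0.43 without wild type replicate 1. A brighter probe set that Psme2 shares with other genes lay outside the tests. It read 7.02 ± 0.45 in wild type and 7.05 ± 0.24 in knockout arrays (0.028, SE 0.24). Psme3, the nuclear PA28 gamma chain, read 8.45, 8.59 and 8.58 against 8.71, 8.59 and 8.79 (0.16, SE 0.10, adjusted p = 0.483). Psme4, which encodes PA200, read 7.34, 7.39 and 7.22 against 7.32, 7.53 and 7.48 (0.13, SE 0.11, adjusted p = 0.591). For Psme3 the groups just failed to overlap, and for Psme4 they did overlap. Psmf1, the PI31 inhibitor of the core, read 7.81, 8.11 and 8.02 against 8.07, 7.84 and 8.01, a difference of -0.0046 (SE 0.12, adjusted p = 0.992), the arrays of both groups being interleaved. Of the genes outside these roles, Psme3ip1 read 8.44, 8.42 and 8.38 against 8.66, 8.58 and 8.56 (0.19, SE 0.09, adjusted p = 0.344), with groups apart, and Psmc3ip differed by 0.049 (-0.11 after another quantile normalization).

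**Figure D2:**
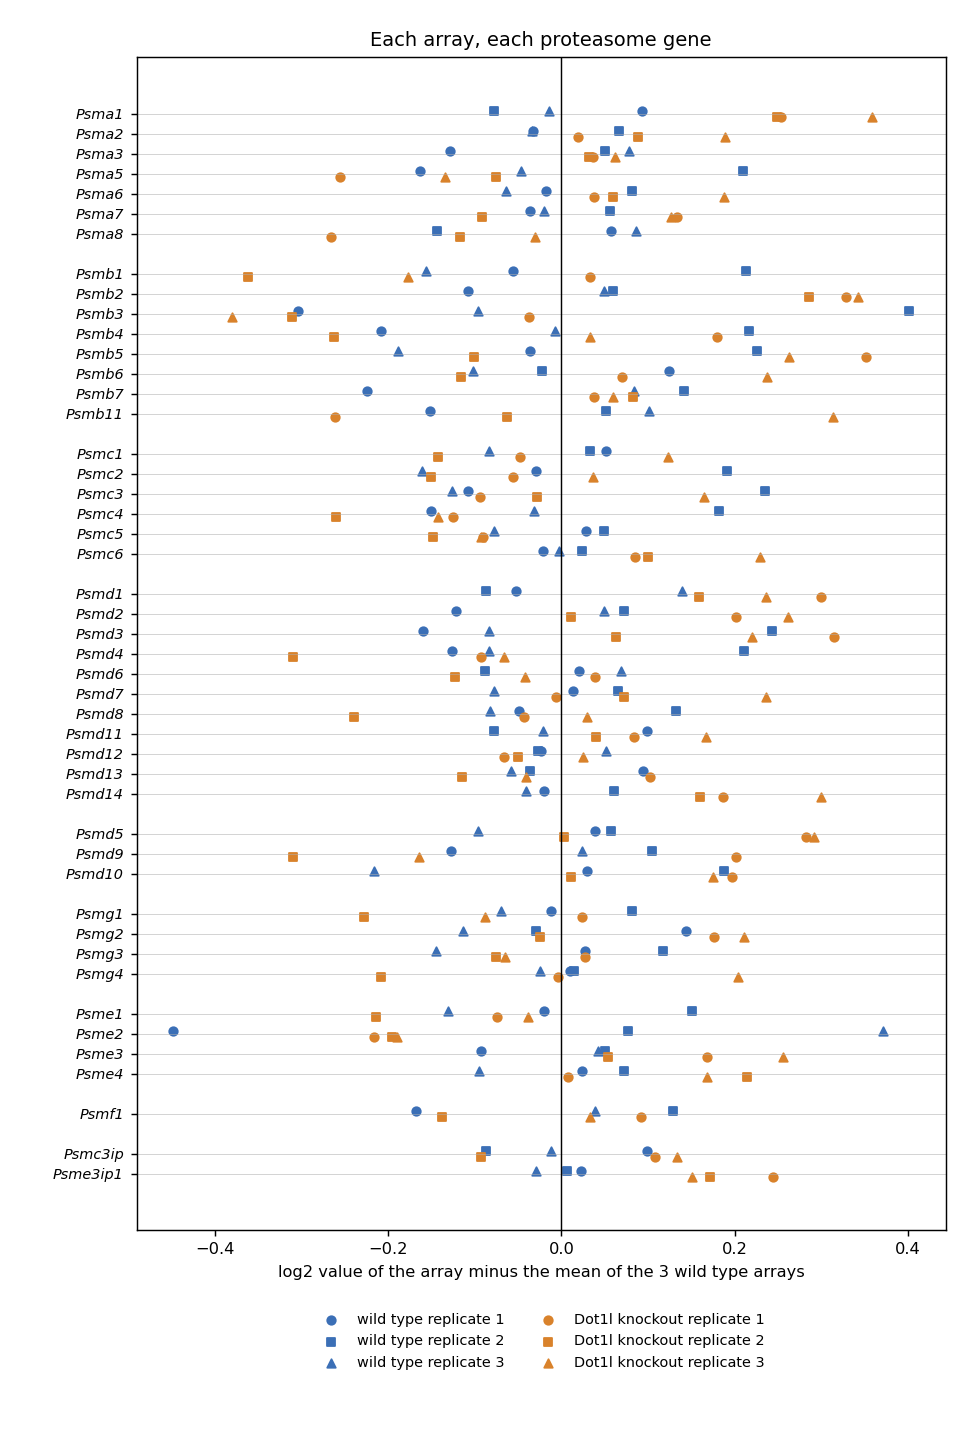
The log2 value of each array minus the mean of the 3 wild type arrays (horizontal axis) for each of 46 proteasome genes (rows). Blue points are wild type and orange points Dot1l knockout arrays, with a marker shape for each replicate number. The colours are mixed in most rows, wild type replicate 2 (blue squares) often lies to the right and knockout replicate 2 (orange squares) often to the left.

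The groups did not overlap in 8 of 46 members, 7 with the knockout arrays above and 1 below. Over all genes they were apart in 23.5%, with 13.7% above and 9.78% below. The 8 were Psmb2, Psma1, Psmd14, Psmd1, Psme3ip1, Psme3, Psmc6 and Psmc5, and none passed the test.

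Arrays within a group also differed from each other in these genes. Wild type replicate 2 was the highest of its group in 31 of 46 members (41.9% of all genes), and knockout replicate 2 was the lowest of its group in 32 (36.2% of all genes). Both held at once in 22 members, among them Psmb1, Psmc4, Psmd4 and Psme1, and in 18.3% of all genes. Relative to the wild type mean, the median member stood at -0.027, 0.066 and -0.038 in the wild type arrays and at 0.038, -0.076 and 0.13 in the knockout arrays. Knockout replicates 2 and 3 thus lay on either side of all wild type arrays. Without knockout replicate 2 the median difference was 0.075, and without knockout replicate 3 it was -0.015, with 0 members called in both cases. The labels name no batch, and what sets these arrays apart was not tested.

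**Figure D3:**
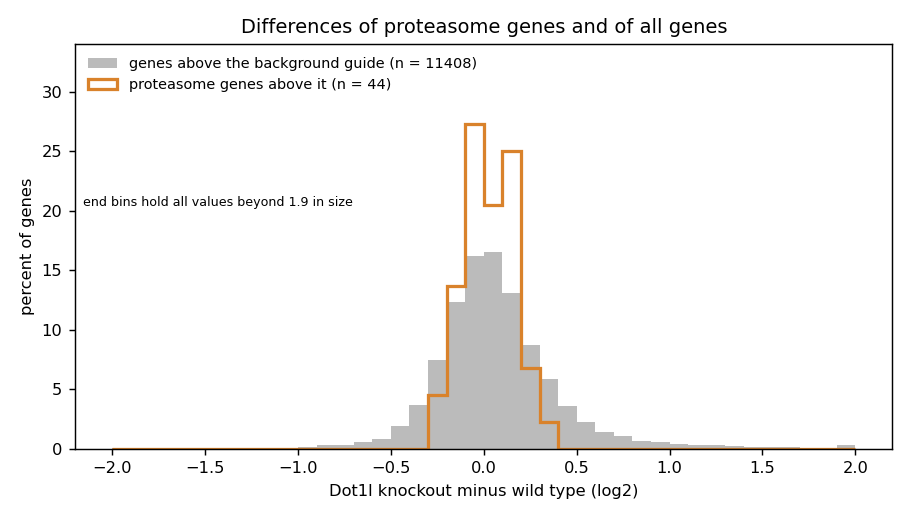
Percent of genes (vertical axis) by difference between Dot1l knockout and wild type arrays on the log2 scale (horizontal axis, bins of 0.1), for 11408 genes above the background guide in grey and the 44 proteasome genes above it in orange. The proteasome genes lie between -0.24 and 0.32, within the central part of the grey distribution, whose tails reach past 1 on both sides.

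The inducible catalytic subunits, which are no members, gave 0 calls of 3. Psmb8 read 9.51 ± 0.21 in wild type and 9.49 ± 0.09 in Dot1l knockout arrays (-0.013, SE 0.13, limma adjusted p = 0.976), and Psmb9 read 7.57 ± 0.24 and 7.78 ± 0.10 (0.20, SE 0.14, adjusted p = 0.502). Psmb10 read 8.67, 9.09 and 8.64 against 9.16, 9.13 and 9.33, with groups apart (0.40, SE 0.14, adjusted p = 0.149). It passed when wild type replicate 2 was left out (0.55, adjusted p = 0.0268), but with no other array left out (limma adjusted p from 0.249 to 0.394).

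Whether the genes of a pair changed unequally was tested by their log2 ratio within each array, over 5 pairs. The pairs set Psmb8, Psmb9 and Psmb10 against the constitutive proteases they replace, and Psme1 and Psme2 against Psme3, another PA28 chain. An exact two-sided permutation test of 3 against 3 arrays cannot give a p below 0.1, so none could pass. The ratio of Psmb10 to Psmb7 was higher in all 3 knockout arrays, by 0.34 (exact p = 0.1, adjusted p = 0.25). The ratio of Psme1 to Psme3 was lower in all 3, by -0.27 (exact p = 0.1, adjusted p = 0.25). Psmb8 to Psmb5 (-0.18) and Psme2 to Psme3 (-0.36) gave an exact permutation p of 0.2, and Psmb9 to Psmb6 (0.14) one of 0.4, with overlapping groups in these 3 pairs. The value for Psmb8 to Psmb5 was -0.057 after another quantile normalization. That for Psme2 to Psme3 was -0.54 without wild type replicate 1 and -0.20 without wild type replicate 3, and that for Psmb9 to Psmb6 was 0.28 without wild type replicate 2 and 0.063 without wild type replicate 1.

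**Figure D4:**
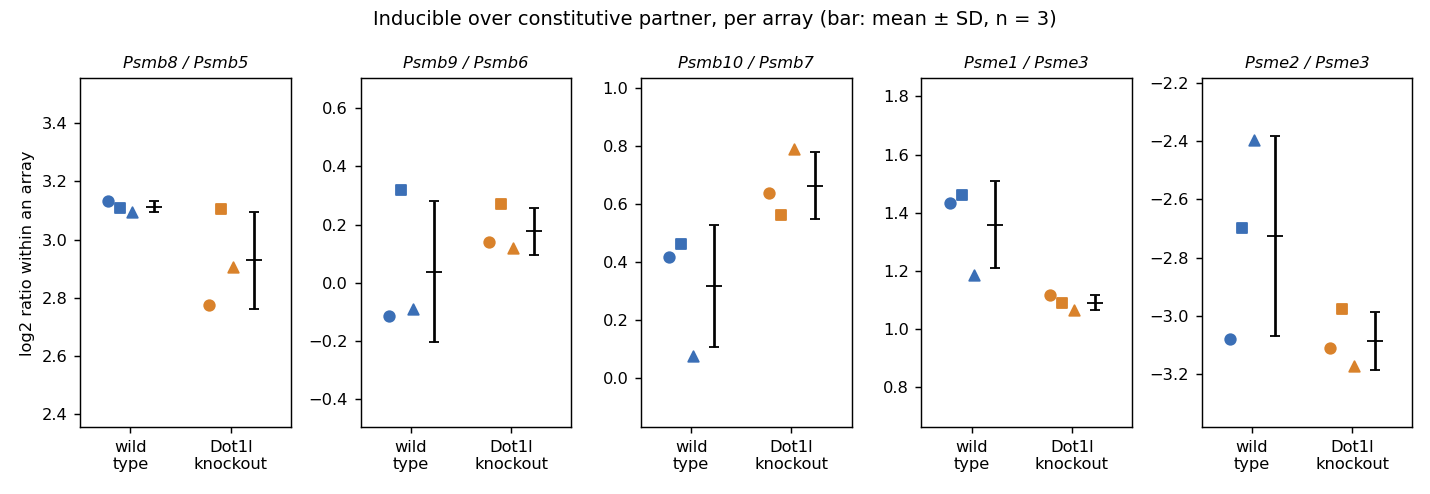
Log2 ratio of an inducible protease gene to its constitutive partner, or of Psme1 or Psme2 to Psme3, within each array (vertical axes, each spanning the same width). Shown are 3 wild type (blue) and 3 Dot1l knockout arrays (orange), with mean ± SD in black. The constitutive partner of the title applies to the Psmb pairs only. Groups do not overlap for Psmb10 to Psmb7, higher in the knockout arrays, and for Psme1 to Psme3, lower there; the height of a ratio has no meaning between probe sets.

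The other genes of the pathway were counted in the same fit. Of 49 measured, 2 were called higher and 0 lower, beside 4.3% and 1.2% of all genes. Among all genes above the background guide 9.95% were called in either direction. Among 11 other subunits and associated proteins 1 rose: Ube3c, a ubiquitin ligase bound to the proteasome, from 6.52 ± 0.04 to 7.01 ± 0.07 (0.49, SE 0.10, limma adjusted p = 0.0192). That call was lost with the replicate number as a block (adjusted p = 0.0684) and after another quantile normalization (0.0629). It was lost as well when wild type replicate 1 (0.0523) or 3 (0.0606) was left out, and for each knockout array left out (0.0852, 0.0619 and 0.0748 in order of replicate). Zfand2a, a stress-induced proteasome partner, differed by -0.28 (SE 0.10) and Usp14, a ubiquitin protease of the cap, by 0.17 (SE 0.10). Of 13 regulators of proteasome genes 0 were called. Nfe2l1, the factor that raises proteasome genes, read 6.69 ± 0.05 in wild type and 6.82 ± 0.08 in knockout arrays (0.13, SE 0.10, adjusted p = 0.552), and its relative Nfe2l2 differed by 0.18. Keap1, which holds NFE2L2 in check, differed by 0.38 (SE 0.10, adjusted p = 0.0675), and Mafg, a partner of both factors, by 0.40 (SE 0.13, adjusted p = 0.129). Mafg passed without wild type replicate 2 (adjusted p = 0.0393), but with no other array left out (limma adjusted p from 0.179 to 0.368). Of 9 activating enzymes and shuttle factors 0 were called. The ubiquitin-activating enzyme gene Uba6 differed by 0.39 (SE 0.12, adjusted p = 0.108) and the shuttle factor gene Ubqln2 by 0.40 (SE 0.13, adjusted p = 0.124). Ubqln2 passed without wild type replicate 2 (adjusted p = 0.0399), but with no other array left out (limma adjusted p from 0.224 to 0.285). Vcp, the segregase that extracts ubiquitinated proteins, differed by 0.24 (SE 0.11).

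Interferon and class I presentation genes gave 1 call among 13, beside 5.5% of all genes and 9.95% of those above the background guide. Irf7, an interferon regulatory factor that strengthens the interferon response, rose from 7.67, 7.79 and 7.62 in wild type to 9.47, 9.75 and 9.82 in Dot1l knockout arrays (1.99, SE 0.12, interval 1.71 to 2.26, limma adjusted p = 3.74e-05). Erap1, which trims peptides for class I, differed by 0.37 (SE 0.10, adjusted p = 0.0737), and Lap3, an interferon-induced peptidase, by -0.53 (SE 0.15, adjusted p = 0.0761). With trend and robust fitting Erap1 (adjusted p = 0.0153) and Lap3 (0.0406) passed. Of the 13 genes 11 had a difference above 0, and the groups were apart in 7, with the knockout arrays above in 6 and below in 1. Over all genes 47.2% had a difference above 0, and the groups were apart in 23.5%. Among the 11408 genes above the background guide, 6380 had a difference above 0 and 3848 had groups apart.

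Promoter windows of RefSeq (build GRCm38.p6, 250 bases before to 50 bases after the start of the gene) were found for 38 of 46 members and searched on both strands for letters of 4 elements. These were the interferon-stimulated response element (GAAA, 2 bases of any kind and GAAA again), TTCNNNGAA of the STAT element, TGACNNNGC of the antioxidant response element that NFE2L1 and NFE2L2 bind, and CCAAT. No match of one element overlapped a match of another. The interferon letters stood in 5 of 38 member genes (13.2%), and in 3.99% of 27025 genes with a window. The STAT letters stood in 2 (5.26%, 9.55% of all genes), the antioxidant letters in 6 (15.8%, 14% of all genes) and CCAAT in 15 (39.5%, 41.1% of all genes). A match is a description of letters and not a binding site.

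The 5 interferon matches are shown because interferon is known to induce Psme1, one of the genes that hold them. The windows of Psme2, Psmb8, Psmb9 and Psmb10, named above as also induced by interferon, held 0 such matches. The letters thus did not mark the induced genes as a group. Each stretch has the match in capitals with 20 bases on either side and reads 5′ to 3′ along the gene. They lie at chr14:55578483-55578532 (+) for Psme1, chr11:97703251-97703300 (+) for Psmb3, chr3:95042665-95042714 (-) for Psmd4, chr5:123228011-123228060 (+) for Psmd9 and chr13:34162959-34163008 (+) for Psmg4.
Psme1: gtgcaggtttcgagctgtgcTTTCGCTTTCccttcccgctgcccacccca
Psmb3: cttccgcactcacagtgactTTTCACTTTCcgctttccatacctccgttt
Psmd4: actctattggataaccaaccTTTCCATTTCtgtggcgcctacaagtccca
Psmd9: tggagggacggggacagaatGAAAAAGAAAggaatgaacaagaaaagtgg
Psmg4: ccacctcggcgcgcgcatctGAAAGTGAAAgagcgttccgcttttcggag
In Psme1 the match begins 10 bases and in Psmg4 16 bases into the transcript, and in Psmd4, Psmb3 and Psmd9 it begins at -80, -163 and -159 from the start. The differences between knockout and wild type arrays were -0.11 for Psme1, -0.24 for Psmb3, -0.16 for Psmd4, -0.091 for Psmd9 and -0.0031 for Psmg4, and none passed. The sign for Psmd9 turned without knockout replicate 2 (0.018), and that for Psmg4 without the same array (0.10) and without wild type replicate 1 (0.0018) or 2 (0.0043).

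The whole windows are printed for Psme1, which holds the interferon match (chr14:55578244-55578543, + strand), and for Psma1 (chr7:114276067-114276366, - strand), the member with the largest difference among those with a window, whose capitals mark a CCAAT match on each strand.
Psme1: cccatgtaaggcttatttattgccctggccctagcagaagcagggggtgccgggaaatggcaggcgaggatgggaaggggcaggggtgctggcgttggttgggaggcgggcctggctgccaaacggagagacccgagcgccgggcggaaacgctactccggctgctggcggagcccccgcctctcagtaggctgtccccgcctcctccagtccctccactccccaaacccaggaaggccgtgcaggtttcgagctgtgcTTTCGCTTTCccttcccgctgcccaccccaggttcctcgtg
Psma1: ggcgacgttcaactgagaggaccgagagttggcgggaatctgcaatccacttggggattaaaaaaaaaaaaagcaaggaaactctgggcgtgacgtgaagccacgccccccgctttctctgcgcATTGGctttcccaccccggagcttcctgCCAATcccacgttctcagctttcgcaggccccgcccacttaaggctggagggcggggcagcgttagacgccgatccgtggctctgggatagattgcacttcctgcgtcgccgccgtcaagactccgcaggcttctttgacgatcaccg
The median GC content was 58.2% over 42 windows of members and 52.7% over all windows.

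Of the CD8 T cell markers 7 of 7 measured lay above the background guide in these arrays, and 0 were called. Their summed level was 13.7 to 13.8 on the log2 scale in both groups. Arrays of a group correlated at 0.989 or above over genes, and those of different groups at 0.984 to 0.987. The targeted gene read 7.20 ± 0.25 in wild type and 7.30 ± 0.04 in Dot1l knockout arrays (0.10, SE 0.13), and its probe set does not check the labels, since the sources used here do not name the deleted exon. B cell markers were called higher in 3 of 9 measured (Cd79a, Ms4a1 and Cd22), beside 4.3% of all genes, and 5 of the 9 lay above the background guide. Of the others, Cd79b, Fcer2a, Ebf1 and Cr2 differed upward and Pax5 (-0.19) and Blk (-0.087) downward, all without a call. The summed level of the B cell markers was 7.65 to 7.94 in wild type and 8.17 to 8.44 in knockout arrays. NK cell markers were called higher in 2 of 6, with summed levels of 9.96 to 10.2 and 10.5 to 10.6. The called NK markers were Eomes (8.29 ± 0.04 against 9.56 ± 0.05) and Tyrobp (0.43). Klrd1, the brightest NK marker in wild type arrays, differed by -0.22, Fcer1g by 0.020, Ncr1 by 0.44 and Klrb1c by 0.90, all without a call. Of 6 dendritic cell markers 1 was called higher, Itgax (4.38 ± 0.23 in wild type against 5.52 ± 0.26 in knockout arrays), the only 1 above the background guide. Zbtb46 differed by 0.12, and Flt3, Siglech, Xcr1 and Batf3 differed downward, all without a call. The summed level of this list was 6.16 to 6.28 against 6.46 to 6.69. Of 9 myeloid markers 1 was higher and 1 lower, with summed levels of 7.02 to 7.25 against 6.95 to 7.04. Of 5 CD4 and regulatory T cell markers 1 was higher and 1 lower, and of 5 plasma cell and 6 stromal markers 0 were called. The part of other cells in the values of the proteasome genes was not tested.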

How the data were processed

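Per the submitters' processing notes, the authors ran RMA under R 3.1.1, and the deposited table holds the resulting log2 values of 6 arrays. The sources used here give neither RMA's settings nor an annotation version or build. RMA corrects background, equalises the distributions of the arrays and compresses differences of dim probe sets. In the deposited values the array medians over all probe sets still ran from 3.69 to 3.78. Arrays have no count depth, and their number limits the precision.

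Of 41345 probe sets 23521 had 1 gene symbol in the platform annotation, 1814 several and 16010 none, and only the first were used. For genes with several probe sets the one with the highest mean was taken, which left 22180 genes. All 46 members were found in the RefSeq gene table. Each gene was tested with limma (version 3.58.1, R version 4.3.3), using lmFit and eBayes without covariates, with Benjamini-Hochberg adjustment over all genes and a threshold of 0.05. The script was tested on simulated data. Ratios within an array were compared by an exact permutation test.

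Given with the value in every array were the 12 members with the smallest p, the activators, the inhibitor and the constitutive proteases; others were the extremes of each role, dim members, those with several probe sets and, chosen after the letters were found, those with an interferon match. In each pathway list the 3 genes with the smallest p were named. The members and lists were chosen with earlier results of these data known. No filter on low values was applied. Pathway list members without a probe set of 1 symbol were not analysed here.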

Additional observations from a re-analysis of the deposited data

Results flagged for a closer look

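A probe set that Psma4, an alpha subunit of the core, shares with AY074887 lay outside the tests because it names 2 genes, and it read higher in all 3 Dot1l knockout arrays than in any wild type array. It read 8.54, 8.52 and 8.42 in wild type and 8.67, 8.73 and 8.81 in knockout arrays (0.24, SE 0.10), with a limma adjusted p of 0.260 over all probe sets. The other probe set of the same pair of genes was dim and differed by -0.23 (SE 0.10, adjusted p = 0.278), so the probe sets disagreed in direction.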

How the results depend on the processing

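No member was called in either direction under any setting tried: a block for the replicate number, each array left out in turn, median centring, another quantile normalization, filters at the 25th and 50th percentile of level, trend with robust fitting, averaging the probe sets of a gene, thresholds of 0.1 and 0.01, and members with a role only. Of all genes tested 1220 were called, between 615 and 1307 when 1 array was left out and 534 at a threshold of 0.01. The share of calls that were higher was 78.2% as deposited, 68.8% with median-centred arrays and 57.1% with quantiles equalised again. Of pathway genes 2 were called, between 1 and 5 when 1 array was left out, 1 with the replicate block or at a threshold of 0.01, and 5 above the 50th percentile of level, with trend and robust fitting, or at a threshold of 0.1. The cause of these changes was not tested.

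The labels do not say whether the replicate numbers pair the arrays. The deviations of same-numbered arrays correlated at -0.074, -0.157 and -0.074, and those of other pairs at -0.0371 to 0.117. Deviations from means of 3 arrays cannot decide whether arrays were paired. With the replicate block 716 genes were called higher and 196 lower among all genes, 0 of them members, and Ube3c was no longer called. The 5 ratios kept their direction under each setting tried, but not their size: when 1 array was left out they lay between 0.224 and 0.416 for Psmb10 to Psmb7, -0.272 and -0.107 for Psmb8 to Psmb5, 0.0628 and 0.278 for Psmb9 to Psmb6, -0.356 and -0.219 for Psme1 to Psme3, and -0.539 and -0.196 for Psme2 to Psme3.

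Differences near 0 changed sign in some settings, all without a call. When 1 array was left out, 13 of 46 members did so, with lowest and highest values of -0.0211 and 0.0828 for Psma3, -0.121 and 0.107 for Psmb4, -0.0955 and 0.0377 for Psmc1, -0.0612 and 0.132 for Psmc3, -0.0785 and 0.0302 for Psmd13, -0.110 and 0.0209 for Psmg3, -0.053 and 0.131 for Psmb7, -0.107 and 0.0998 for Psmg4, -0.0884 and 0.0621 for Psmf1, -0.163 and 0.125 for Psmb11, -0.137 and 0.0389 for Psmc2, -0.238 and 0.0184 for Psmd9 and -0.0227 and 0.154 for Psmb6. Of other genes, Psmb8 ran from -0.116 to 0.0982 and Dot1l from -0.0205 to 0.227. Psmc3ip turned to -0.107 with quantiles equalised again and to -0.00055 with median-centred arrays. When probe sets of a gene were averaged, Psmg2 turned to -0.054, Psma5 to 0.285 and Vcp to -0.024. The cause was not tested.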
